A study of Mus musculus with 33 samples.

Results

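The olfactory receptor genes of mouse chromosome 2 were taken as all protein-coding genes of the RefSeq annotation of GRCm38 whose symbols begin with Olfr and a number (or with the newer Or names) on that chromosome. They were 287 of the 20665 protein-coding genes on chromosomes 1 to 19. Their state was read from lists of chromatin domains made from CUT&RUN, a method in which an antibody-guided nuclease releases the DNA around its target. The targets were dimethylated lysine 9 of histone H3 (H3K9me2), a mark of repressed chromatin, and Lamin B1, a protein of the lamina under the nuclear envelope, with IgG as control. The sources were mES cells, a pluripotent C57BL/6 embryonic stem cell line first plated on feeder cells and then grown in medium with LIF and 2i, and wild-type C57BL/6 embryos of stage E11.5, whose hearts (whole) and forebrains (right lobe) were pooled by litter. H3K9me2 and Lamin B1 each had 3 libraries per source, from 3 litters or 3 culture vessels, and IgG had 3 in mES cells and 6 in each tissue, which makes 33 libraries. No source is labelled as olfactory epithelium, where these receptors act, and both tissues hold many cell types, so a state is that of the mixture.

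For each source the depositors gave 3 lists of domains, named LADs, KODs and open. A LAD is a lamina-associated domain, a long stretch of chromatin that touches the nuclear lamina. KOD is the depositors' own label, which no source used here spells out. The lists run in whole bins of 10 kb and carry no score. Each pools the libraries of its source, so no value below has a replicate error and no difference between sources could be tested. The number of reads that a domain rests on is not known from the lists. A bin may also stand in no list. Each gene took the state found over most of its body, from start to end of the gene model. The receptor genes are short, with a median body of 945 bases (842 to 60182), and 47 of the 287 cross a border between bins.

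Olfactory receptors are G protein-coupled receptors on the cilia of the sensory neurons of the nose. Each of these neurons uses a single receptor gene, from a single allele, and keeps the others silent in compact chromatin. Their coding sequence usually lies in a single exon, and the genes stand in long arrays that grew by tandem duplication. The arrays of chromosome 2 hold receptors of class II, the class found in land vertebrates.

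The receptor genes of chromosome 2 were almost all LAD in each of the 3 sources. In mES cells 281 of the 287 genes were LAD, which is 97.9%, beside 16.5% of all protein-coding genes. In heart 276 were LAD, or 96.2%, beside 14.2% of all genes, and in forebrain 278, or 96.9%, beside 16.5%. A set of 266 genes (92.7%) were LAD in all 3 sources, a state shared by 10.8% of all genes. Not LAD in at least 1 source were 21 receptor genes (7.32%), against 89.2% of all genes. Of these 21, 17 were LAD in 2 sources and in no list in the other.

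A listed state other than LAD was rare. Being open in at least 1 source was found for 3 receptor genes (1.05%), namely Olfr368, Olfr1506 and Olfr1274, whereas 82.3% of all genes were KOD or open somewhere. None of the 287 genes was KOD in any source, although 28.3% of all genes were KOD in at least 1. By source, mES cells had 1 open receptor gene and 5 in no list, heart 3 and 8, and forebrain 1 and 8. In heart and forebrain every receptor gene lay wholly within a single state. In mES cells this held for all but Olfr1506, whose body was 63.2% LAD and 36.8% in no list.

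**Figure D1:**
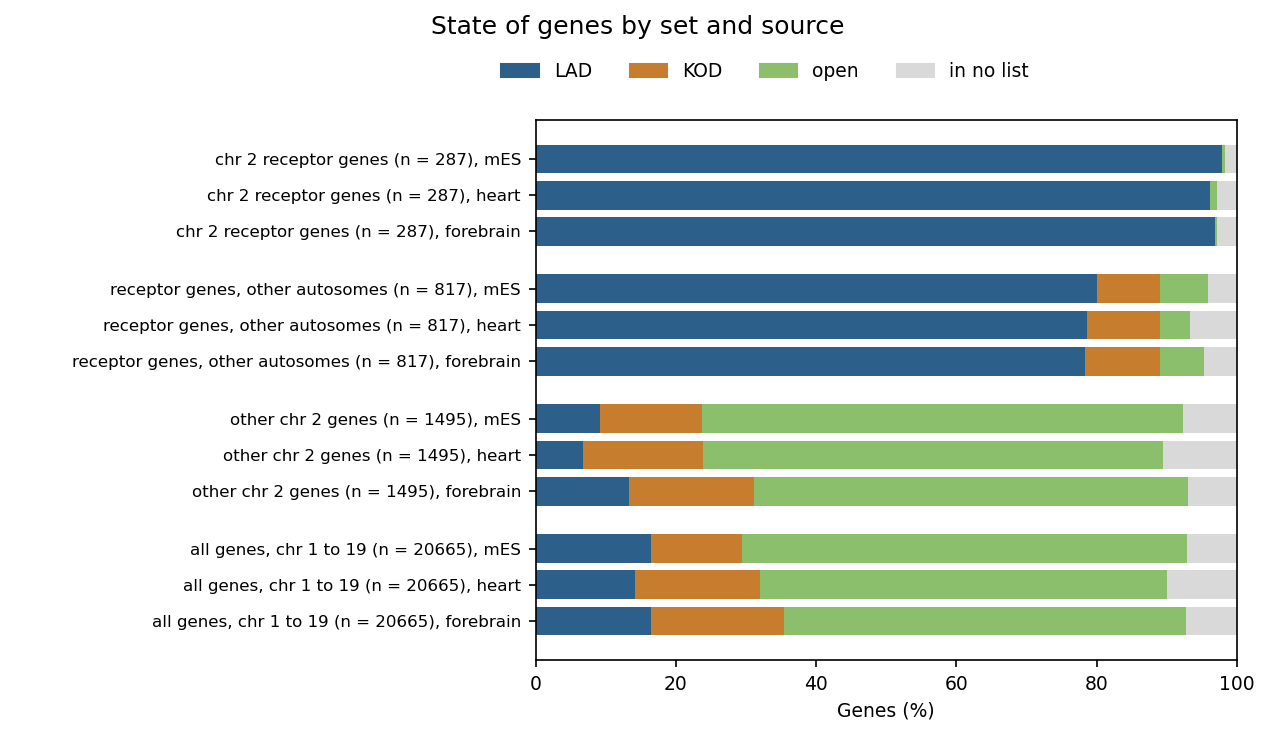
Share of genes (%) in each state, for the receptor genes of chromosome 2 (n = 287), those of other autosomes (n = 817), other protein-coding genes of chromosome 2 (n = 1495) and all protein-coding genes of chromosomes 1 to 19 (n = 20665), in mES cells, heart and forebrain. LAD fills between 96.2% and 97.9% of the top 3 bars, which show no KOD.

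The neighbours on chromosome 2 and the receptor genes elsewhere had other shares. Of the 1495 other protein-coding genes of chromosome 2, LADs held 9.16% (mES cells), 6.76% (heart) and 13.4% (forebrain), and 5.22% were LAD in all 3. Of the 817 receptor genes of other autosomes, 80.0%, 78.7% and 78.3% were LAD, 70.6% in all 3 sources, and 112 (13.7%) were KOD in at least 1. These genes share clusters and a single map per source, so the shares were set side by side without a test. Chromosome 2 did not stand alone. On chromosome 9, 121 of 130 receptor genes (93.1%) were LAD in all 3 sources and none was KOD, and on chromosome 10 it was 62 of 68 (91.2%), again with no KOD. At the other end, 16 of 83 were LAD in all 3 on chromosome 11 and 3 of 24 on chromosome 4, and all 9 genes of chromosome 15 were KOD in at least 1 source.

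With neighbouring starts at most 200 kb apart counted together, the 287 genes formed 3 clusters and left no single gene. The widest step inside a cluster was 141 kb, and the clusters lay 47999 kb and 20830 kb apart. Cluster 1, from Olfr338 to Olfr368 (chromosome 2, 36376778 to 37332732), held 28 genes over 956 kb. Cluster 2, from Olfr987 to Olfr1274 (85330967 to 90401674), held 222 genes over 5071 kb, or 43.8 per Mb. Cluster 3, from Olfr1275 to Olfr1318 (111230853 to 112157007), held 37 genes over 926 kb. The state of the clusters differed in how complete it was. All 37 genes of cluster 3 were LAD in all 3 sources, as were 210 of 222 in cluster 2 and 19 of 28 in cluster 1.

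Cluster 3 was the one with no break. Each of its 93 bins was LAD in each source. In mES cells and in heart the cluster lay in a LAD with the same borders, 111100001 to 112180000, which is 1080 kb long. In forebrain the LAD around it was longer, 2140 kb, from 110060001 to 112200000. The nearest other gene before the cluster, A26c3, ended 1.25 kb ahead of Olfr1275 and was LAD in all 3 sources, over 94.4%, 94.4% and 100% of its body in mES cells, heart and forebrain. The nearest after it, Gm52523, started 71.8 kb past Olfr1318 and was in no list in any source.

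Cluster 2 was a single LAD in forebrain and a broken one elsewhere. In forebrain, 1 LAD of 5250 kb (85130001 to 90380000) held 221 of the 222 genes. In mES cells 217 genes lay in 3 LADs, of 2320 kb, 2620 kb and 100 kb. In heart 213 genes lay in 4 LADs, of 2600 kb, 1280 kb, 910 kb and 50 kb. By bins, LADs took 95.1% of the cluster in mES cells, 93.7% of it in heart and 99.4% of it in forebrain.

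Cluster 1 had its most broken map in forebrain. LADs took 96.9% of its 97 bins in mES cells, 92.8% of them in heart and 79.4% of them in forebrain, where 20 genes lay in 4 LADs of 30 to 470 kb. In mES cells 27 of the 28 genes lay in 1 LAD of 990 kb (36320001 to 37310000), and in heart 26 lay in 1 LAD of 900 kb that had the same distal border (36410001 to 37310000). So the source with the longest LAD over cluster 2 had the most pieces over cluster 1.

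**Figure D2:**
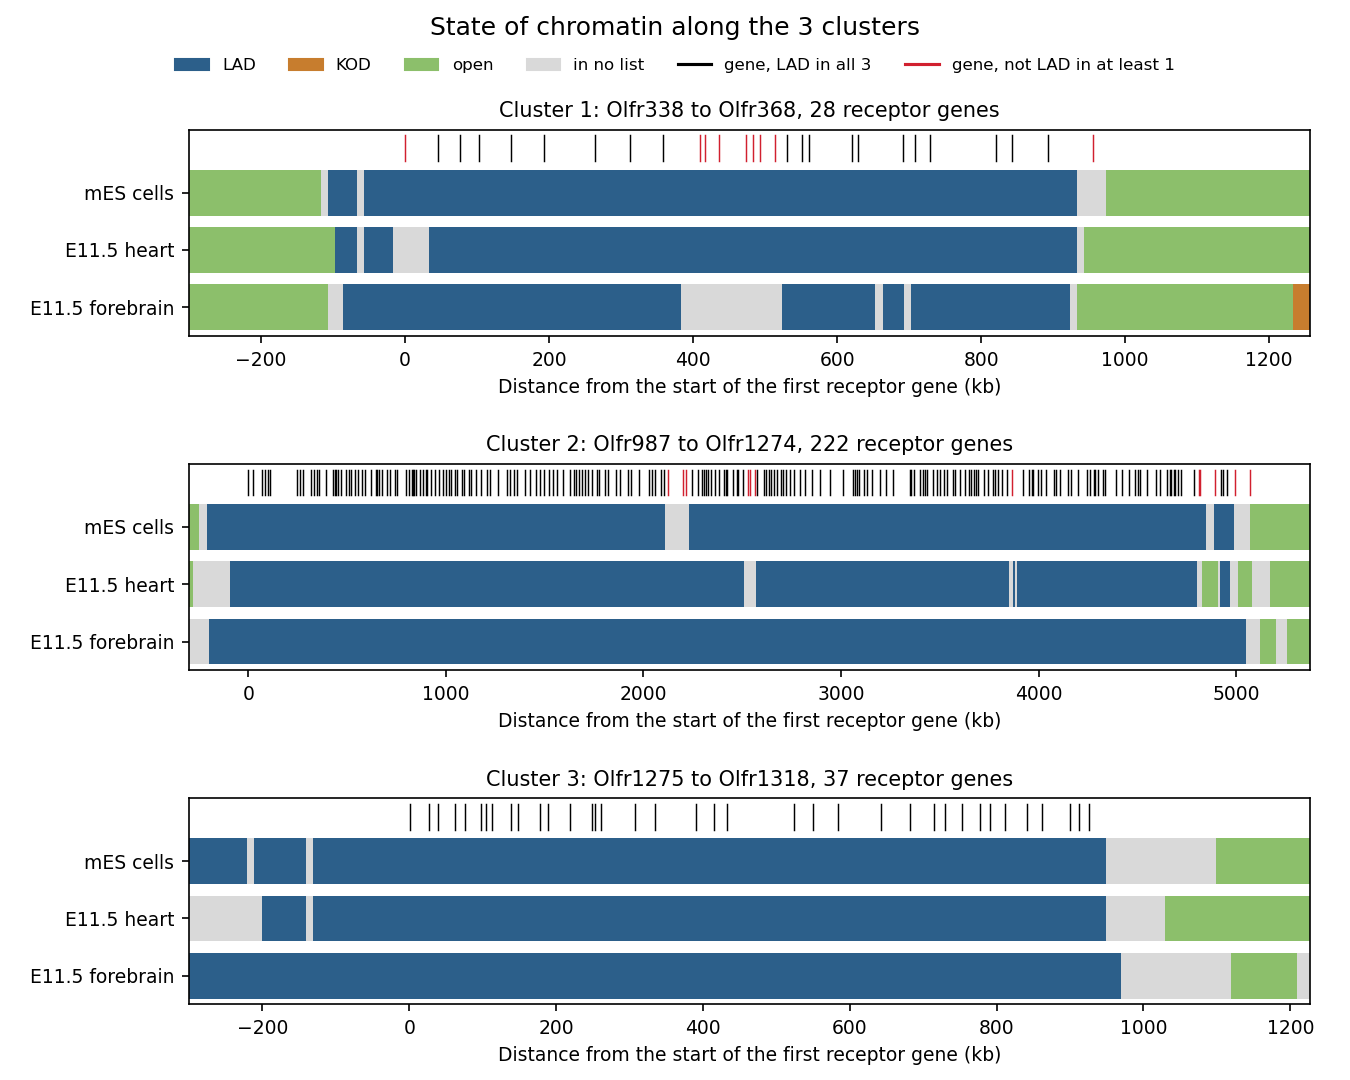
State of the chromatin (colour) along the 3 clusters in mES cells, heart and forebrain, with distance from the first receptor gene on the x axis (kb). Ticks mark receptor genes, black where LAD in all 3 sources (266) and red where not (21), and the red ticks sit at both ends of cluster 1, at the distal end of cluster 2 and over a few gaps inside these clusters.

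The exceptions fell in a small number of stretches. Of the 698 bins in the 3 clusters, 630 were LAD in all 3 sources and 68 were not. Of those 68, 52 were not LAD in 1 source, 10 in 2 sources and 6 in all 3. The 6 bins made up the distal ends of cluster 1 (37310001 to 37340000) and of cluster 2 (90380001 to 90410000). Every other break inside cluster 1, and every break of cluster 2 before 90180001, was seen in a single source.

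The widest break was in forebrain, inside cluster 1. A stretch of 140 kb (36760001 to 36900000) was in no forebrain list and LAD throughout in mES cells and heart. It held 7 genes, Olfr348, Olfr50, Olfr3, Olfr350, Olfr351, Olfr352 and Olfr353. By the MOR names that group receptors of like protein sequence, 5 of them belong to MOR136 and 2 (Olfr351 and Olfr353) to MOR127. The genes on either side, Olfr347 and Olfr354, were LAD in all 3 sources. In the same cluster Olfr338, the first gene, lay in a stretch of 50 kb in no heart list (36360001 to 36410000) and was LAD in mES cells and forebrain.

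In mES cells the widest break lay in the middle of cluster 2. A stretch of 120 kb (87440001 to 87560000) was in no mES list and LAD throughout in heart and forebrain. It held the receptor genes Olfr1126, Olfr153 and Olfr1128, and between them Pramel7 and Pramel6 (87489088 to 87492418 and 87506565 to 87510865), genes of the early embryo that naive stem cells are known to use. Pramel7 and Pramel6 thus had the same states as the 3 receptor genes around them. The other gene of another kind inside cluster 2, Fads2b of the fatty acid desaturase family, was LAD in all 3 sources. Expression was not measured. The sequences at the starts of the 3 receptor genes are shown because these are the members that were LAD in both tissues and not in the stem cells. Each runs from 250 bases before to 50 bases after the start of the RefSeq gene model (GRCm38.p6), 5′ to 3′ on the strand of the gene, with a TATA box (TATAAA) or a homeodomain core (TAATTA), on either strand, in capitals. All 3 models begin at the start codon, so these windows show the bases before the coding sequence and the start of transcription may lie further upstream. Olfr1126 (chr2:87456917-87457216, plus strand) and Olfr1128 (chr2:87545493-87545792, minus strand) held neither motif, and Olfr153 (chr2:87531785-87532084, plus strand) held 2 TATA boxes and 1 homeodomain core.
Olfr1126: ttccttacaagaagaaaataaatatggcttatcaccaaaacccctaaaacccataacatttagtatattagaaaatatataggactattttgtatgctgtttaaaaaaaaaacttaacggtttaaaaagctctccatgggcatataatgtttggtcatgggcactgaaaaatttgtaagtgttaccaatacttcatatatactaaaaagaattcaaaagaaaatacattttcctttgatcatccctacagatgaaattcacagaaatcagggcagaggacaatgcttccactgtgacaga
Olfr153: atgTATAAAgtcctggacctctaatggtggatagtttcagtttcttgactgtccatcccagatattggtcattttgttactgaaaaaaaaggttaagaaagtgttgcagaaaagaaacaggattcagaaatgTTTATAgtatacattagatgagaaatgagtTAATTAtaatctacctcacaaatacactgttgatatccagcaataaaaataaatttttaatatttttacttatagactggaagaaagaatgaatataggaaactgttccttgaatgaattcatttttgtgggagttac
Olfr1128: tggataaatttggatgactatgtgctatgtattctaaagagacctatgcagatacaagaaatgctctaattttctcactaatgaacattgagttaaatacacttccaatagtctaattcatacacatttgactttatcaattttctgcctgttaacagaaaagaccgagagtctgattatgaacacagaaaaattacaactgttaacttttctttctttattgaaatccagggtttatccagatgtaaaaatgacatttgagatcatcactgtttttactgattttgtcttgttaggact

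In heart, cluster 2 had 2 inner breaks that held receptor genes, and others at its end. Olfr1151, Olfr1152 and Olfr1153, all of MOR177, lay in a stretch of 60 kb in no heart list (87840001 to 87900000). Olfr1226 lay in 1 of 20 kb (89180001 to 89200000). All 4 were LAD in mES cells and in forebrain.

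At the distal end of cluster 2 the maps of mES cells and heart broke up into short domains. Olfr32 and Olfr1270, whose gene models overlap each other, were in no heart list (90130001 to 90160000) and LAD in the other 2 sources. Next to them, Olfr1506 (90217395 to 90224471) lay in an open domain of 80 kb in heart (90160001 to 90240000), and was LAD in forebrain and, over the 63.2% given above, in mES cells. No other receptor gene of chromosome 2 was LAD in 1 source and open in another. Then Olfr142, Olfr1271 and Olfr1272 were LAD in all 3 sources, in heart inside a LAD of 50 kb (90250001 to 90300000) set apart by bins in no list from an open domain on either side. Olfr1565 (90322222 to 90329298) was LAD in forebrain and in no list in mES cells and heart. Olfr1274, the last gene, was open in mES cells and heart, and in no list in forebrain. It lay 28.1 kb from Ptprj, a receptor tyrosine phosphatase gene. Ptprj was 100% open in mES cells, 53.5% open in heart and 53.0% open in forebrain, and the rest was in no list. Its end that faces Olfr1274 was in no list in either tissue.

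At the distal end of cluster 1, Olfr368 (37331749 to 37332732) was open in heart and forebrain and in no list in mES cells. It lay 17.3 kb from Pdcl, a phosducin-like gene, which was open over 100% of its body in each source. Olfr368 and Olfr1274 were the members that were LAD in no source, 2 of 287 (0.697%) against 78.9% of all genes, and each was the last gene of its cluster. Their start windows are shown with that of Olfr1506, the gene that was LAD or open by source. For contrast stands Olfr1275, the first gene of cluster 3, LAD in all 3 sources. The windows are chr2:37331499-37331798 (plus strand) for Olfr368, chr2:90400390-90400689 (plus) for Olfr1274, chr2:90224422-90224721 (minus) for Olfr1506 and chr2:111231742-111232041 (minus) for Olfr1275. The windows of Olfr368 and Olfr1275 are set at a start codon and the other 2 are not. The window of Olfr1275 is the first listed for that gene and lies inside its gene model (111230853 to 111233393). Capitals mark the same motifs. The G+C content was 43.0% in Olfr368, 40.7% in Olfr1274 and 46.7% in Olfr1506, against a median of 32.7% over the members. Over all 20 windows of genes not LAD in at least 1 source the median was 34.2%, and windows of genes LAD in all 3 reached 44.0%. Olfr1275 held 3 matches to the TATA box, of which 1 lay after the start codon. Olfr1274 held 1 such match and Olfr1506 held 1 homeodomain core.
Olfr368: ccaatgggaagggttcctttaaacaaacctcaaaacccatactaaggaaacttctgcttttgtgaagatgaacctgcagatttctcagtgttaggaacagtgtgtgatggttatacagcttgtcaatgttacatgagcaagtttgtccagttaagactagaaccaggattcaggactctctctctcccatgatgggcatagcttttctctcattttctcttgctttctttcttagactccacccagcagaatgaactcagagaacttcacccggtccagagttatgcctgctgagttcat
Olfr1274: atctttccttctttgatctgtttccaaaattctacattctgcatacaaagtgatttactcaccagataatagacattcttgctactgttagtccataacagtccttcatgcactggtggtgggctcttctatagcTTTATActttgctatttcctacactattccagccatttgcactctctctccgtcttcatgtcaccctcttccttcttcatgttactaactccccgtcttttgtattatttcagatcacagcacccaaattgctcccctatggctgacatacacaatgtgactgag
Olfr1506: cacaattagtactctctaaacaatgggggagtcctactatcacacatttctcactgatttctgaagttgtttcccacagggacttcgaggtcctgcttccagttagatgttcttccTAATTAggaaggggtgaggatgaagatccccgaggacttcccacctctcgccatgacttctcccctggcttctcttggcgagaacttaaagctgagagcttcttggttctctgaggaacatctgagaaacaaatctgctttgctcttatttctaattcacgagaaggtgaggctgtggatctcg
Olfr1275: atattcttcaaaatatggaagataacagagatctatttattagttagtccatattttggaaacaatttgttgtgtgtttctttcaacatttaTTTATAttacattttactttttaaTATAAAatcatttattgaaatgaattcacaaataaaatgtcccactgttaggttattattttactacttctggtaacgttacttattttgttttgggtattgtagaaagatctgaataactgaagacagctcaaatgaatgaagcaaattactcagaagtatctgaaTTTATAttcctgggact

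The window of Olfr1565 (chr2:90321972-90322271, plus strand) was the same as that of Olfr1506 at all 300 bases. Both genes are 7077 bases long and stand on opposite strands, 105 kb apart. They had different states in mES cells (LAD and no list) and in heart (open and no list). No source used here says how reads from such copies were placed, and the part of read placement in these states was not tested.

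**Figure D3:**
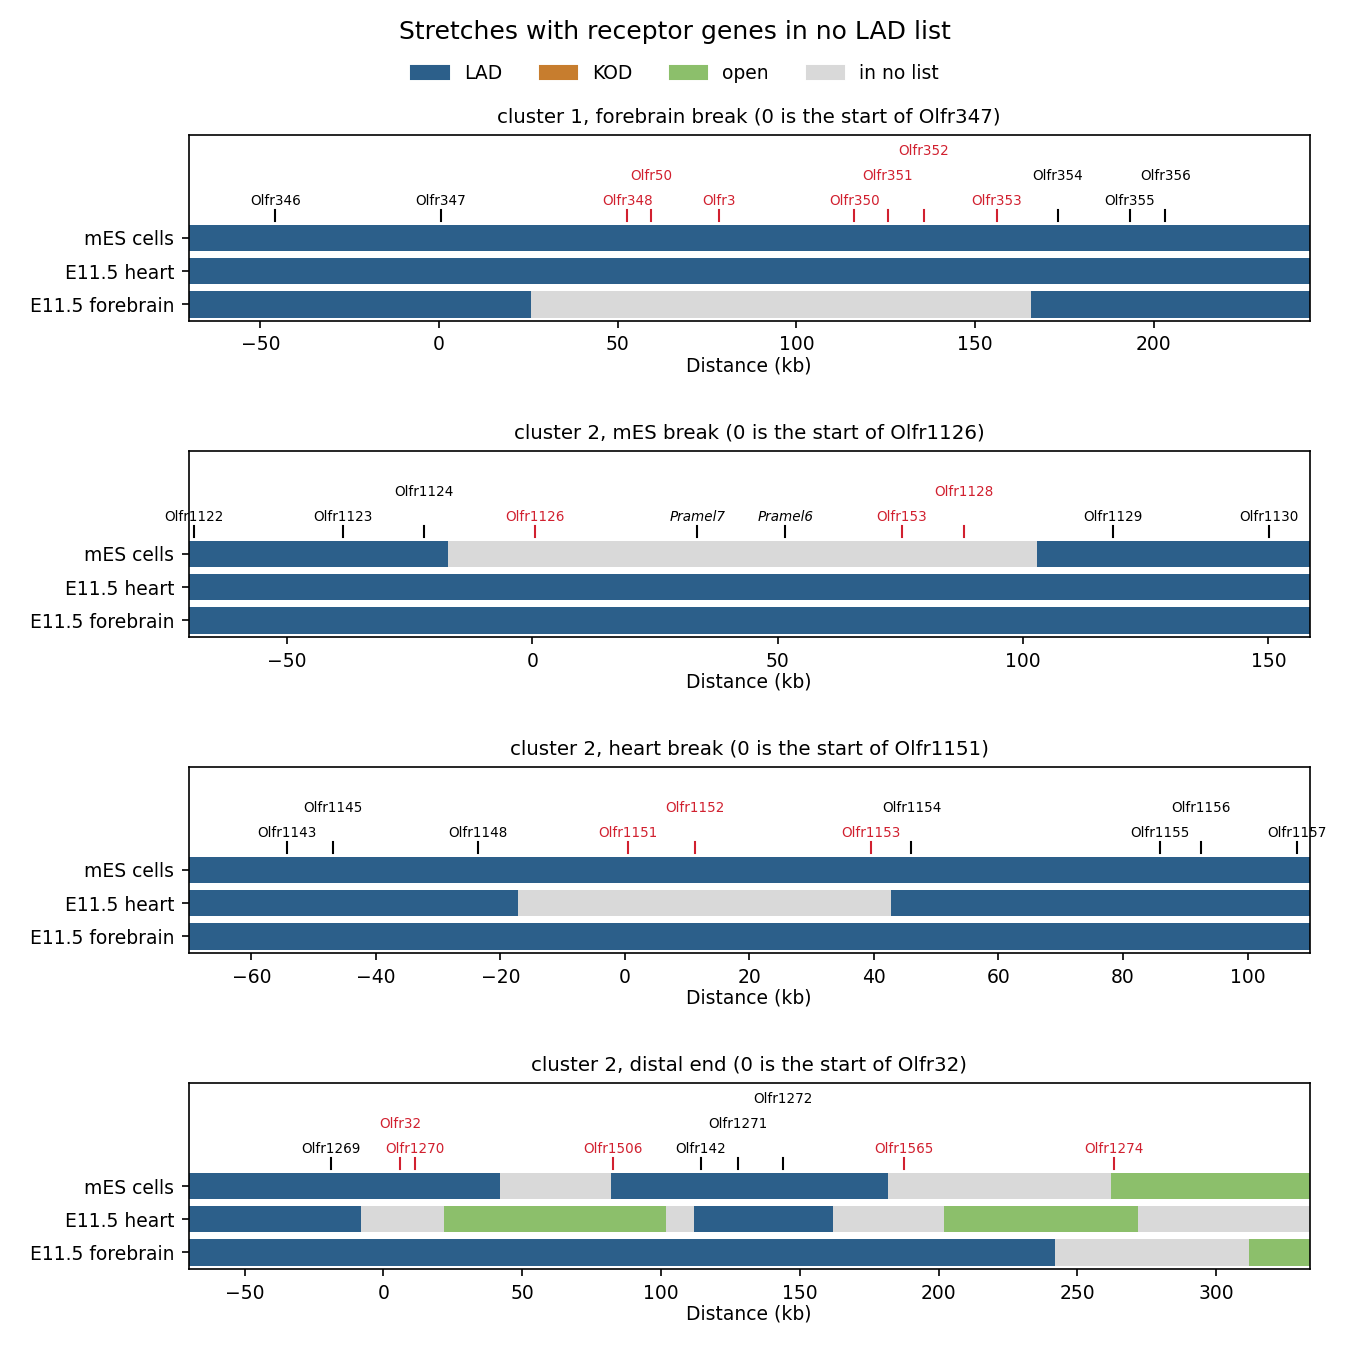
The 4 stretches that hold most of the exceptions, with the state (colour) in each source and distance from a named gene on the x axis (kb). Receptor genes not LAD in at least 1 source are in red, those LAD in all 3 in black, and the 2 Pramel genes in italics. The top 3 stretches show a break in a single source. The bottom one shows breaks in mES cells and heart and, at its distal end, in forebrain.

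Most of the receptor genes lay far inside their LADs. The median distance from a gene to the nearer end of its LAD was 481 kb in mES cells (range 0.933 to 1305 kb), 369.5 kb in heart (2.53 to 1298 kb) and 1073 kb in forebrain (1.22 to 2624 kb). For all protein-coding genes in LADs the medians were 185 kb, 105.5 kb and 208 kb. In cluster 2 the medians were 652 kb in mES cells, 412 kb in heart and 1353 kb in forebrain. In cluster 1, in the same order of sources, they were 313, 292 and 54.6 kb, so that forebrain had the longest distance in one and the shortest in the other. Cluster 3 had 244 kb in both mES cells and heart and 578 kb in forebrain. Genes within 50 kb of a LAD end numbered 11 in forebrain, 14 in mES cells and 19 in heart.

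**Figure D4:**
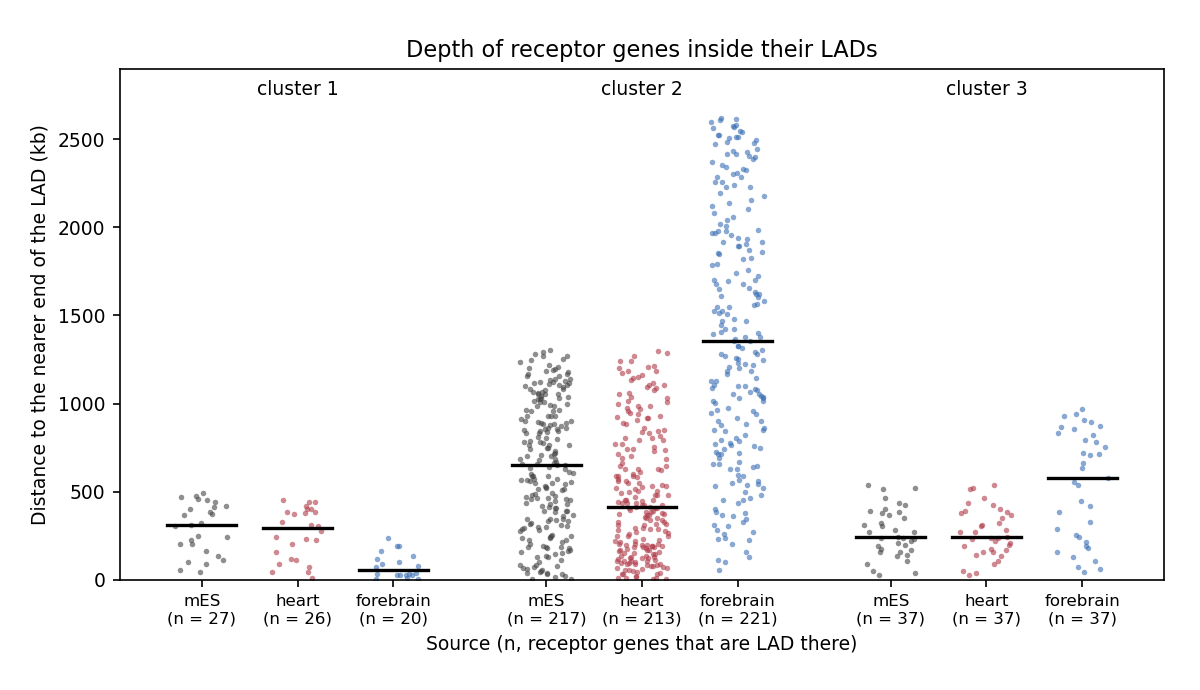
Distance from each receptor gene to the nearer end of the LAD that holds it (y axis, kb), by cluster and source, with n genes that are LAD there and the median as a bar. In cluster 2 the forebrain genes reach 2624 kb from a LAD end, and in cluster 1 they reach 234 kb.

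The gene density of these LADs is given as description only. They were picked for holding members of long arrays, so a high density follows from that choice. The LADs that held a receptor gene of chromosome 2 added up to 7.11 Mb (mES cells), 6.82 Mb (heart) and 8.24 Mb (forebrain), which is 0.680%, 0.708% and 0.780% of all LAD bases. The receptor genes in them made up 8.26%, 9.43% and 8.14% of all LAD genes. There were 39.5, 40.5 and 33.7 of these receptor genes per Mb of such LADs, beside 3.25, 3.04 and 3.23 protein-coding genes per Mb over all LADs.

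The LAD ends met different neighbours at each side. At the proximal side of cluster 1 stood Ptgs1, the cyclooxygenase 1 gene, 118 kb ahead of Olfr338 and open over 100% of its body in each source. The nearest open bin lay 117 kb ahead of the cluster in mES cells, 96.8 kb in heart and 107 kb in forebrain. At the distal side the LAD of mES cells and that of heart ended at the same base, 37310000, and that of forebrain 1 bin earlier, at 37300000. Ahead of cluster 2 stood Lrrc55, a potassium channel subunit gene, and Aplnr, the apelin receptor gene, both wholly LAD in mES cells and forebrain and wholly in no list in heart. The LAD began there at 85120001 in mES cells, 85130001 in forebrain and 85240001 in heart.

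The clusters were also distinct in the families they hold. A MOR family name was found for 277 of the 287 genes, in 54 families, and each family stood in 1 cluster. Of these families, 15 had a single member and so could stand in only 1 cluster. Cluster 3 was made of MOR245 (21 genes) and MOR248 (16), all LAD in all 3 sources. In 45 of the 54 families every member was LAD in all 3, among them MOR174 and MOR231 of cluster 2, with 14 genes each. The 45 include families of a single gene, and 92.7% of all members were LAD in all 3. The families with the most members not LAD in at least 1 source were MOR136, where 8 of 14 were LAD in all 3, and MOR177, where 9 of 13 were. MOR178 had a single member, Olfr368, which was LAD in no source. Members of a family often stand side by side in 1 stretch, so they are not independent of each other.

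The receptor pseudogenes had like shares. Of 90 annotated olfactory receptor pseudogenes of chromosome 2, LADs held 89 in mES cells and 88 in each tissue, 85 of them in all 3 sources. The 5 others were in no list in 1 source and were never KOD or open. Of these, Olfr349-ps1 lay in the forebrain break, Olfr1127-ps1 in the mES break, and Olfr1150-ps1 in the heart break with Olfr1151, all described above.

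The start windows showed what the members share in sequence. RefSeq windows were found for 243 of the 287 genes, and 182 of them begin at a start codon, against 5.17% of windows of genes that are no receptors. For most members they therefore cover the bases before the coding sequence and not a known start of transcription. The median G+C content was 32.7% (range 18.3% to 46.7%), compared with 36.7% for 695 windows of receptor genes on other autosomes and 57.7% for 15519 windows of other protein-coding genes. The median number of CpG was 1 in both receptor sets and 15 in the others. No CpG at all was found in 87 member windows (35.8%), in 32.9% of windows of receptor genes on other autosomes and in 3.22% of windows of other genes.

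The same motifs and a further one were searched on both strands. TATAAA, the TATA box, was in 120 of the 243 member windows (49.4%) and in 13.5% of all 16457 windows of protein-coding genes. TAATTA, the core bound by homeodomain factors such as Lhx2, was in 60 (24.7%), against 4.61% of all windows. CCCNNGGG, the core of the site of the Ebf factors, was in 5 (2.06%), against 15.7%. These 5 were among the 61 windows that do not begin at a start codon (8.20%). Receptor genes of other autosomes (695 windows) had TATAAA in 38.3%, TAATTA in 16.7% and CCCNNGGG in 3.45%, so these shares are not particular to chromosome 2. The sets differ in base composition, as given above, and the shares were not corrected for it. No motif match shows that a factor binds there. Of the 20 windows of genes not LAD in at least 1 source, 9 held the homeodomain core and 7 the TATA box. Of the 223 of genes LAD in all 3 it was 51 and 113. The 9 include Olfr1506 and Olfr1565, whose windows are the same sequence. These shares were not tested.

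**Figure D5:**
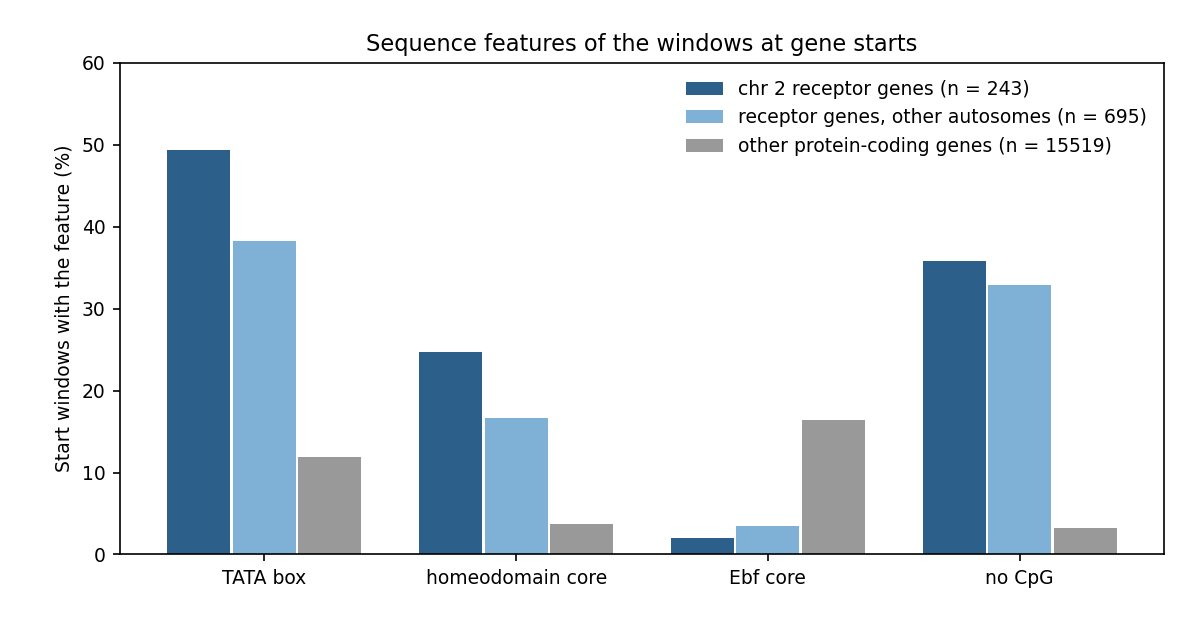
Share of 300-base start windows (y axis, %) with a TATA box, a homeodomain core, an Ebf core or no CpG, for receptor genes of chromosome 2 (n = 243), those of other autosomes (n = 695) and other protein-coding genes (n = 15519). The TATA box was in 49.4% of the first set, 38.3% of the second and 11.9% of the third.

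The genes that receptors work with lay mostly outside LADs, as did protein-coding genes in general, of which 78.9% were LAD in no source. Of 18 genes of olfactory transduction, 17 lie on chromosomes 1 to 19, and 16 of these (94.1%) were LAD in no source. The other, Pde1c, a cyclic nucleotide phosphodiesterase of olfactory cilia, was 78.9% LAD in heart, 80.7% in forebrain and 97.9% in mES cells. Open in all 3 sources were 8 of the 17, beside 43.8% of all protein-coding genes, among them Gnal, which encodes the olfactory G protein, Adcy3, the adenylyl cyclase it drives, and Omp, the olfactory marker protein. KOD in at least 1 source were 7 (41.2%), beside 28.3% of all genes, as with Ano2, the chloride channel, KOD in all 3. Differences between sources were found for 5 genes. Cnga4, a channel subunit, was open in forebrain and in no list elsewhere. Rtp1 and Rtp2, which carry receptors to the membrane, were open in forebrain and KOD in heart, and in mES cells Rtp1 was KOD and Rtp2 open. Slc24a4, an ion exchanger gene, was KOD in mES cells and open in forebrain. In heart it was 58.7% in no list and 41.3% open. Arrb2, an arrestin gene, was KOD in both tissues and open in the stem cells.

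Of 26 genes of receptor choice and nuclear organisation none was LAD in all 3 sources, beside 10.8% of all genes, and 24 (92.3%) were LAD in no source, beside 78.9%. Open in all 3 were 13, beside 43.8% of all genes, for example Ebf1, Atf5, Ehmt1, Ehmt2 (the H3K9 dimethyltransferase G9a), Lmnb1 and Lmna. Nfia, a transcription factor gene, was 81.5% LAD in mES cells and 83.4% and 81.2% open in heart and forebrain. Mef2c was 95.7% LAD in mES cells, 65.7% open in heart and 85.9% in no list in forebrain. KOD in at least 1 source were 11 genes (42.3%), beside 28.3% of all genes. With lists this short and no test, nothing particular to either list is read from these shares. Lhx2 and Emx2, homeodomain factors, were open in mES cells and heart and KOD in forebrain, and so were Setdb1 and Cbx5. Lbr, the lamin B receptor gene, was KOD in heart and open in the other 2. Ldb1 and Kdm1a were KOD in both tissues and open in the stem cells, and Ebf3 and Tet3 the reverse by the larger share. Ebf3 was split almost evenly in mES cells, 51.4% KOD and 48.6% open, and was still 20.4% KOD in forebrain. Tet3 was 81.9% KOD in mES cells.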

How the data were processed

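The data were CUT&RUN libraries of H3K9me2, Lamin B1 and IgG. The tools named, per the submitters' processing notes, are Bowtie2 2.5.0, cutadapt 4.2, deepTools, Picard and Trim Galore, and the build is mm10. The domain caller, its cut-offs and the use of IgG are not given in the sources used here. The 9 deposited lists hold chromosome, start and end of domains on chromosomes 1 to 19, with no score, and 1 list per state and source pools the replicates. The deposited coordinates were read as whole 10 kb bins and are printed counted from 1. Sequencing depth, the calling threshold and the placing of reads from near-identical copies could each move a domain border, which was not tested.

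Genes and start windows came from RefSeq GRCm38.p6, the assembly behind mm10. A gene took the state that covers most of its body. The first window listed for a gene was used, and it may lie inside the gene model. Start windows of 300 bases were compared by edit distance with edlib 1.3.9.post1. Python 3.11.15, numpy 2.4.6, pandas 2.3.3, scipy 1.17.1 and matplotlib 3.10.9 were used, and the placing of genes on maps was tested on simulated data. With 1 pooled map per source no test across samples was possible. MOR family names came from the synonyms of the annotation, and a gene with conflicting names was given none. Alternatives were the gene midpoint, the whole or widened body, trimmed, longer or gap-filled domains, other cluster limits and wider spans. Genes named were every member not LAD in a source, the first and last gene of each cluster, the nearest other genes and those inside clusters, and list genes that were LAD or varied. The largest families and example list genes were named after their values were seen. Members and lists were chosen with earlier results of these data known.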

Additional observations from a re-analysis of the deposited data

How the results depend on the processing

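Over 10 values (the counts of receptor genes LAD in each source, LAD in all 3, not LAD in at least 1, KOD or open, the clusters LAD throughout, and the LAD share of cluster bins per source), 61 of 66 recomputed values stayed within 1.5 times the reported count or within the 95% binomial interval of the reported share, and 5 did not. For the LAD counts of 266 to 281 among 287 genes, the limit of 1.5 times cannot be passed upward and is wide downward. Staying within it therefore says little. The smaller counts also shifted within the limit. With domains of at least 100 kb, 25 genes were not LAD in at least 1 source and 2 were KOD or open, against 21 and 3. With gaps of at most 20 kb filled, 20 were not LAD in at least 1 source. The binomial interval counts neighbouring bins as independent, which they are not, so it is only a yardstick. With 20 kb trimmed from every domain end, 34 receptor genes were not LAD in at least 1 source, the 21 reported and 13 more, and 1 was KOD or open (Olfr368, open in forebrain) where 3 had been. LADs then took 91.7% of cluster bins in heart and 94.6% in forebrain, against 94.4% and 96.7%. Olfr1506, Olfr1274 and Olfr368 were then in no list in heart, and Olfr1274 in none in mES cells, where they had been open. With starts at most 100 kb apart there were 4 clusters, and 2 were LAD throughout in all 3 sources, since 6 genes from Olfr987 to Olfr995 split off. The alternative without Olfr367-ps, whose symbol names a pseudogene although the annotation lists it as protein-coding, was added after seeing the data and moved none of the 10 values. Leaving out a replicate could not be run. No paired analysis was possible because each list pools the replicates of its source. Depth limits are unknown, since the lists carry no counts.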

Other observations

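Close copies among the start windows were found in clusters 2 and 3, which hold most of the windows. Of the 243 member windows, 17 shared at least 90% of their bases with the window of another member, by edit distance over 300 bases, and the median for the closest other window was 57.7%. By cluster, they were 15 of 186 windows in cluster 2, 2 of 30 in cluster 3 and none of 27 in cluster 1, where the highest value was 84%. The difference between clusters was not tested. By state, 15 were among the 223 windows of genes LAD in all 3 sources, such as Olfr1168 and Olfr1173 (98.3%) and Olfr1057 and Olfr1062 (96.7%). The other 2, Olfr1506 and Olfr1565 at 100%, were among the 20 of genes not LAD in at least 1 source. Among the 20 windows of genes not LAD in at least 1 source the median was 58.7%, and among the other 223 it was 57.7%.

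On other autosomes there were 44 clusters of at least 2 receptor genes by the same 200 kb limit, and 7 of them were LAD throughout in all 3 sources. Of the 14 with at least 20 genes, 1 was, the 25 genes from Olfr693 to Olfr716 on chromosome 7. Cluster 3 of chromosome 2, with 37 genes, was thus the whole cluster with the most genes, by this limit, that was LAD throughout in these 3 maps. Longer unbroken runs stood inside cluster 2. An example is the 98 genes of the mES LAD from 85120001 to 87440000, which were LAD in all 3 sources.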
